A study of Rattus norvegicus with 6 samples.

Results

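The neuropeptide genes of the superficial superior colliculus were followed as 6 Ensembl gene IDs out of 26402 in the table of FPKM (fragment counts divided by transcript length and by the total of the library). They were taken by ID from a list that was drawn up with earlier results of these data known: Sst (ENSRNOG00000001837), Npy (ENSRNOG00000009768), Tac1 (ENSRNOG00000007374), Cck (ENSRNOG00000019321), Penk (ENSRNOG00000008943) and Vip (ENSRNOG00000018808). The pairing of symbols with IDs comes from that list. The deposited tables carry no symbols, so the pairing could not be checked against them.

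The tissue came from Sprague Dawley rats aged postnatal day 20. In the closed group, 3 libraries, the lids had been held shut by glue between days 14 and 20. In the open group, also 3 libraries, the eyes were open over that period. Each group holds 1 library from each of batches A, B and C, and the labels say neither what a batch is nor how many animals a library holds. All libraries were of polyadenylated RNA, no genetic change is given for either group, and the comparison asks how keeping the eyes from opening alters transcript abundance. Markers of the tissue and of other cell types were not analysed here, since no source used here pairs the IDs with symbols.

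Neuropeptides are made as precursor proteins, cut and packed into dense-core vesicles, and released to act mostly on G protein-coupled receptors. Somatostatin (Sst), neuropeptide Y (Npy) and vasoactive intestinal peptide (Vip) mark classes of inhibitory neuron in many forebrain regions. Tac1 encodes the precursor of the tachykinins substance P and neurokinin A, Penk that of the enkephalins, and Cck that of cholecystokinin. The superficial layers of the colliculus are a visual centre that receives retinal axons, and several of these peptides have been described in its neurons and afferents. In bulk tissue, fewer cells of a type and less RNA per cell cannot be told apart.

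The cAMP response element is a promoter sequence through which neuronal activity can raise transcription, and the somatostatin gene is the textbook case. RefSeq windows of 250 bases before to 50 bases from the annotated start onward (build GRCr8) were matched for 4 of the 6 members, Sst, Npy, Tac1 and Vip. No window was matched for Cck and Penk. The full element, TGACGTCA, which reads the same on both strands, was found in the Sst window and in 1.83% of all 33469 windows. Its core, TGACG or CGTCA on the other strand, was found in the Sst, Tac1 and Vip windows, and in 21.2% of all windows. The full element contains the core on both strands. The windows of Sst (chr11:90461296-90461595, plus strand), Tac1 (chr4:36645333-36645632, plus strand) and Vip (chr1:44470230-44470529, plus strand) are shown, as the tested members matched. The tested members that did not pass the batch test below, Cck and Penk, had no window, so the core cannot be set against batch differences. Capitals mark the core or the full element. A match is a description of letters, not a site in use.
Sst: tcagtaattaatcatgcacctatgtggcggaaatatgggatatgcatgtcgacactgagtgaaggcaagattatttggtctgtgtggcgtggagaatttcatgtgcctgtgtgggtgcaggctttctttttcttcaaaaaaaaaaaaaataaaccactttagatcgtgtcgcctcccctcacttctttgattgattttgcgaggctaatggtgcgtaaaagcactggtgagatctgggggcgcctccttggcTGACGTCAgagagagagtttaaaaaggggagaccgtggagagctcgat
Tac1: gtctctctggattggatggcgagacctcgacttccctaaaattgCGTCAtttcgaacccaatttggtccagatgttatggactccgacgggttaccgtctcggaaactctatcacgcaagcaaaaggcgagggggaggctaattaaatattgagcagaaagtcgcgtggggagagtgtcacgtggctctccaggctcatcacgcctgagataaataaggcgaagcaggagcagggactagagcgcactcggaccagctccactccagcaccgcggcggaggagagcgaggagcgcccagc
Vip: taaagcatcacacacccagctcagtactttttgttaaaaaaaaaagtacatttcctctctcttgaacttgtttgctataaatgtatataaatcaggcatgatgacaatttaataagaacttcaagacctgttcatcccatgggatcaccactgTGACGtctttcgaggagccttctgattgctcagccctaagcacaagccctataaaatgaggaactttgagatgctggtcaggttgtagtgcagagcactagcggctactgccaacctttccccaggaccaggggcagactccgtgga
Counting the annotated start as 1, the element of Sst began at 3, the core of Tac1 at -206 and that of Vip at -97. These positions hold for the annotated start only. Whether transcription begins there was not tested, so they do not place an element before or inside the transcript.

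Of the 6 transcripts, Sst was the most abundant on average, followed by Tac1, Cck, Vip and Penk, while Npy was at or near 0. Mean FPKM over the 6 libraries was 110 for Sst, 74.0 for Tac1, 45.4 for Cck, 13.8 for Vip and 9.40 for Penk. FPKM is scaled by length, so these levels can be set beside each other as FPKM. A bias particular to a gene would move all libraries alike, and it was not tested here or by the order of neighbours below. Of the 12351 IDs whose mean reached 1 FPKM, 97.2% lay below Sst, 95.2% below Tac1, 91.1% below Cck, 65.2% below Vip and 52.0% below Penk. These 5 members passed that filter and entered the fits, and Npy did not.

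The order of neighbouring genes held in all 6 libraries except between Sst and Tac1. Tac1 exceeded Cck by 1.24 to 2.12 times, Cck exceeded Vip by 2.88 to 3.83 times, and Vip exceeded Penk by 1.22 to 1.74 times. Each of these differences, and that between Penk and Npy on the log2(FPKM + 0.5) scale, gave an exact sign-flip permutation p = 0.03125 over 6 libraries (two-sided, the smallest possible, adjusted p = 0.0391 over 5 neighbouring pairs). Sst was above Tac1 in 5 of 6 libraries and below it in closed B, where the ratio was 0.861. The test between these neighbours was not passed (mean log2 ratio 0.58, SD 0.50, exact permutation p = 0.09375, adjusted p = 0.0938). These tests treat the 6 libraries as independent, although libraries of 1 batch were alike. Taken as 3 batches, the smallest p that sign flips allow is 0.25, and none of the neighbouring pairs could pass.

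**Figure D1:**
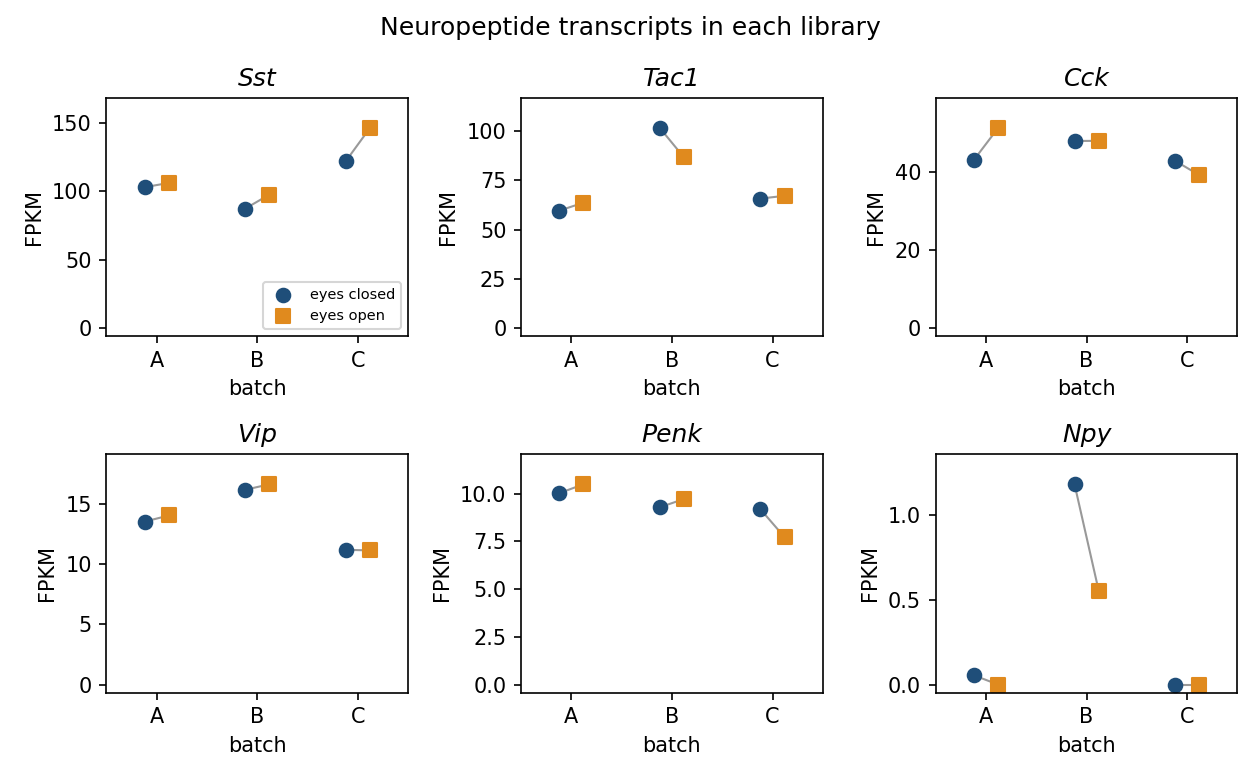
FPKM (vertical axes, with a scale of its own for each gene) of the 6 genes in batches A, B and C, with 1 point per library, circles for closed and squares for open eyes, and a line joining the libraries of a batch. Sst stands highest in batch C and Tac1 and Vip in batch B in both eye conditions, and the points for closed and open eyes overlap in every panel.

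Sst, the precursor of somatostatin, was lower with closed eyes in each batch, by a small margin. Its FPKM was 103 in closed A, 87.4 in closed B and 122 in closed C, against 106 in open A, 97.6 in open B and 146 in open C. Batch C gave the highest value in each condition and batch B the lowest. The 2 groups overlapped, since closed C lay above open A and open B. Closed was below open by 2.94% in batch A, 10.5% in batch B and 16.6% in batch C. Group means were 104 ± 17.4 FPKM with closed eyes and 117 ± 26.0 FPKM with open eyes (SD, 3 libraries each).

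The difference of Sst did not pass the test. On the log2(FPKM + 0.5) scale it was -0.15 (limma, SE 0.20, adjusted p = 1), a fold of closed over open of 0.899 with a 95% interval from 0.649 to 1.24. With batch as a block the interval was 0.811 to 0.996 and the unadjusted p was 0.0435, but the adjusted p was 0.781. The unadjusted p of this blocked fit was 0.124 with all libraries set to the same median, and 0.036, 0.148 and 0.152 when batch A, B or C was left out. The size of its fold exceeded that of 85.8% of tested IDs. An exact two-sided permutation test gave p = 0.6 without pairing and p = 0.25 with pairing by batch, where 0.1 and 0.25 are the smallest values that 3 libraries per group allow. Without open C the log2 difference was 0.02, in a fit without batch that kept closed C, the highest closed library. Without the whole of batch A, B or C it stayed below 0, at -0.21, -0.15 and -0.10. With all libraries set to the same median, batch A no longer pointed down (0.02, against -0.10 in B and -0.28 in C).

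The authors' deposited table put Sst at -0.16, as a log2 fold of closed over open, with the smallest p of the 6 members (p = 0.0219, adjusted p = 1). Its p ranked at 234 among 20347 IDs with a p-value. Sst was the 1 member of 6 with an unadjusted p under 0.05 there, beside 2.4% of all IDs. By the adjusted p no member was called in that table, beside 0.0344% of all IDs. The mean normalized count behind Sst was 2424, so this was the most deeply counted of the 6 genes.

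Vip, the precursor of vasoactive intestinal peptide, was nearly equal between the eye conditions within each batch. Its FPKM was 13.5 in closed A and 14.05 in open A, 16.2 in closed B and 16.6 in open B, and 11.2 in closed C and 11.1 in open C. Both libraries of batch B were highest and both of batch C lowest. Closed eyes differed from open by -3.64%, -2.75% and 0.447% in A, B and C. The largest of these gaps, 0.05 on the log2 scale, exceeded that of 2.55% of tested IDs, and the median over tested IDs was 0.19. Among the other tested members this share ran from 63.1% for Tac1 to 71.7% for Sst. The log2 difference of Vip over all libraries was -0.03 (limma, SE 0.19, adjusted p = 1), with a 95% interval of the fold from 0.728 to 1.32. The interval for Vip with batch as a block was 0.889 to 1.08. The authors' deposited table leaned the other way, at 0.07 on the log2 scale (adjusted p = 1), with a mean normalized count of 425.

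Tac1, the tachykinin precursor, showed no shared direction over the batches. Its FPKM was 59.6, 101 and 65.7 in closed A, B and C, and 63.6, 86.6 and 67.1 in open A, B and C. Closed was above open by 17.2% in batch B, and below it by 6.34% in A and 2.08% in C. The log2 difference was 0.03 (limma, SE 0.23, adjusted p = 1), with a 95% interval of the fold from 0.712 to 1.47. This was the widest of the tested members in the fit without batch, where differences between batches add to the spread. The interval for Tac1 with batch as a block was 0.911 to 1.152, and that of Penk was then the widest. Without closed B the log2 difference of Tac1, in a fit without batch, was -0.20. The authors' deposited table put its log2 fold at 0.12 (p = 0.138, adjusted p = 1), with a mean normalized count of 1512.

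Penk, the enkephalin precursor, had a coefficient of variation over libraries of 10.2%. Its FPKM was 10.0, 9.28 and 9.18 in closed A, B and C, and 10.5, 9.71 and 7.71 in open A, B and C. Open C was the lowest library and the others lay within 9.18 to 10.5. Closed was below open by 4.45% in batch A and 4.44% in batch B, and above it by 19.0% in batch C. The gap in batch C, 0.24 on the log2 scale, was its largest and exceeded that of 65.6% of tested IDs. The log2 difference was 0.04 (limma, SE 0.14, adjusted p = 1), with a 95% interval of the fold from 0.824 to 1.28, and became -0.09 without open C. The interval for Penk with batch as a block was 0.903 to 1.17. The authors' deposited table put its log2 fold at 0.04 (adjusted p = 1), with a mean normalized count of 378.

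Cck, the cholecystokinin precursor, had the smallest relative spread of the 6 genes, with a coefficient of variation over libraries of 9.72%. Its FPKM was 43.1, 48.0 and 42.9 in closed A, B and C, and 51.3, 48.0 and 39.2 in open A, B and C. The closed libraries lay inside the range of the open ones. Closed was below open by 15.9% in batch A, level with it in batch B and above it by 9.31% in batch C. The log2 difference was -0.04 (limma, SE 0.14, adjusted p = 1), with a 95% interval of the fold from 0.773 to 1.22, and 0.04 without open A. The interval for Cck with batch as a block was 0.860 to 1.10. The authors' deposited table put its log2 fold at -0.06 (adjusted p = 1), with a mean normalized count of 1134.

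Npy, the neuropeptide Y precursor, was listed at 0 FPKM in closed C, open A and open C. It stood at 0.0546 FPKM in closed A, 1.18 in closed B and 0.554 in open B. Both values above 0.1 FPKM were thus from batch B, 1 from each eye condition. The mean normalized count in the authors' deposited table was 5.39, so the count-based table also places this ID close to 0. With the filter lowered to a mean above 0 FPKM, the log2 difference between closed and open eyes was 0.27 (limma, SE 0.55, adjusted p = 1). A value of 0 in such a table can be a failed estimate, and it was not tested whether reads of the gene were counted under another ID.

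Across the members, the eye comparison gave no call. Of the 5 tested members, 0 passed an adjusted p under 0.05 in limma, beside 0% of all 12351 tested IDs, and 0 had an unadjusted p under 0.05, beside 0.542%. With batch as a block, again 0 of 5 passed the adjusted p, beside 0.0081% of IDs, and Sst alone had an unadjusted p under 0.05, beside 6.32%. Sst was lower with closed eyes in all 3 batches, as were 19.5% of IDs. No tested member was higher in all 3 batches, beside 8.4% of IDs, and none had groups without overlap, beside 3.02%. A p that misses the threshold does not show that the groups were equal. The intervals without the block still allow folds from 0.649 to 1.47. With the block the range over the 5 members was 0.811 to 1.17.

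**Figure D2:**
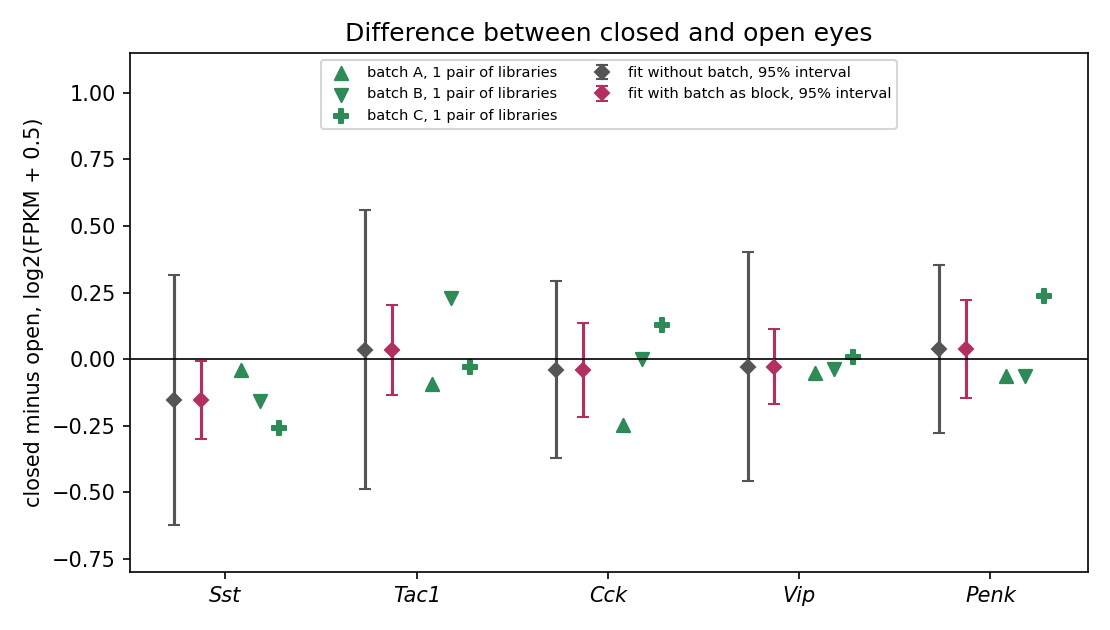
Closed minus open on the log2(FPKM + 0.5) scale (vertical axis) for the 5 tested genes, with diamonds for the limma estimates and bars for their 95% intervals, and green marks for the single pair of libraries of each batch. The 3 marks lie below 0 for Sst and on both sides of 0 for the other genes, and the Sst interval with batch as a block ends just below 0.

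Sst, Tac1 and Vip differed between batches, as did Npy in the 1 setting that tested it. In a limma fit with eye condition and batch, the batches differed for Vip (adjusted p = 0.00299), Tac1 (adjusted p = 0.00303) and Sst (adjusted p = 0.00348), and the test was not passed by Penk (adjusted p = 0.108) and Cck (adjusted p = 0.133). These 3 of 5 members stand beside 49.7% of all tested IDs, so differing between batches was common. The 3 calls held in each of 9 settings, with adjusted p up to 0.0242, although scaling the libraries to the same median lowered the number of IDs called from 6138 to 3739. With the filter at a mean above 0 FPKM, the batches differed for Npy (limma, adjusted p = 0.018), the ID with its values above 0.1 FPKM in batch B. In that setting 4211 of 19306 IDs differed between batches. Npy was listed at 0 in both libraries of batch C and in open A, so its test rests on values at the floor.

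Sst stood highest in batch C, and Tac1 and Vip in batch B. The mean FPKM of Sst was 105 in A, 92.5 in B and 134 in C. Tac1 had means of 61.6, 94.0 and 66.4 and Vip of 13.8, 16.4 and 11.2 in A, B and C. The lowest batch was thus A for Tac1 and C for Vip, and their ratio had batch means (geometric) of 4.47, 5.71 and 5.95. The gap between the highest and lowest batch was 0.53 for Sst, 0.60 for Tac1 and 0.53 for Vip on the log2 scale, where the median tested ID had 0.33. For Cck it was 0.22 and for Penk 0.27. With all libraries set to the same median, the gap was 0.72 for Sst, 0.61 for Tac1, 0.34 for Vip, 0.10 for Penk and 0.03 for Cck.

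Of the sum of squares of Vip, 99.3% went to batch, which was more than in 98.9% of tested IDs. It took 93.1% for Tac1, 86.0% for Sst, 69.9% for Penk and 60.7% for Cck, beside a median of 81.2% over tested IDs. Eye condition took 10.5% for Sst and between 0.405% and 2.47% for the other tested members, beside a median of 4.37%. These shares are from unscaled values, and shares with all libraries set to the same median were not computed. Closed C and open C had lower log2 medians over tested IDs (3.09 and 3.07) than the other libraries (3.24 to 3.31). What the batches differ in is not given in the labels, and a part of tissue composition in the values of these genes was not tested.

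**Figure D3:**
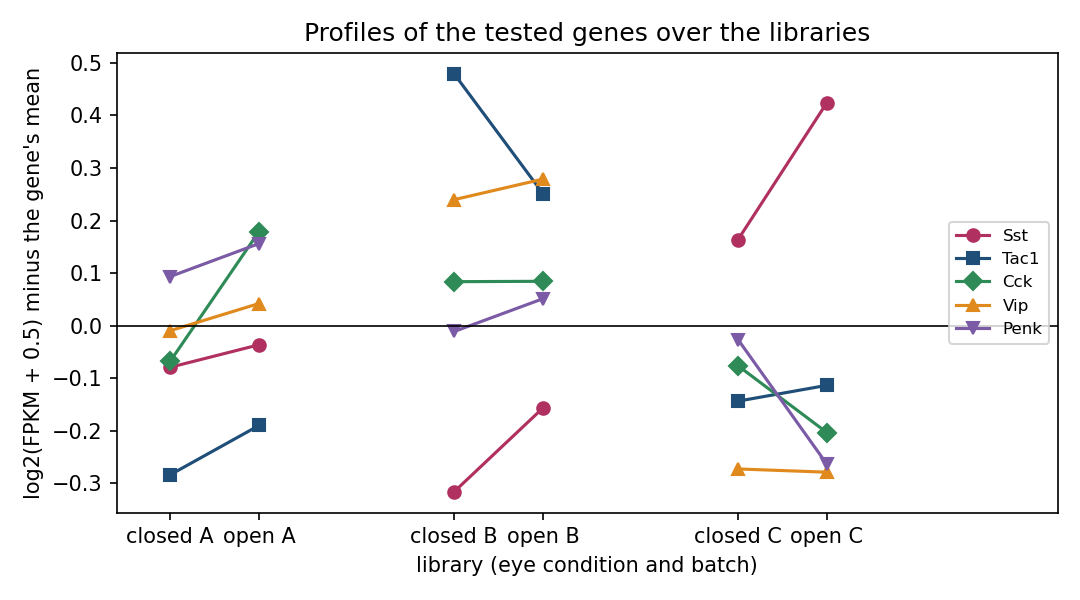
Each tested gene's log2(FPKM + 0.5) minus its own mean (vertical axis) in the 6 libraries, with a line joining the closed and open library of a batch. Sst lies lowest in batch B and highest in batch C, Tac1 and Vip are highest in batch B, and Vip, Cck and Penk stay within about 0.3 of 0.

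Ratios within a library do not depend on how libraries are scaled to each other. Every ratio of Sst to another tested member lay apart by batch, as did those of Tac1 to Cck and to Penk. The remaining pairs of tested members overlapped between batches. How often ratios of other IDs lie apart by batch was not computed, so the separation cannot be read as particular to these genes. Of single tested IDs, 49.7% differed between batches. The ratio of Sst to Vip was 7.61 and 7.56 in closed and open A, 5.40 and 5.87 in closed and open B, and 10.9 and 13.1 in closed and open C. No library of 1 batch reached into the range of another. The ratio of Sst to Tac1 was 1.73 and 1.67 in A, 0.861 and 1.13 in B, and 1.86 and 2.18 in C, in the order closed and open. The batches were again separate, and the ratio spanned 2.53 times from its lowest to its highest library. The ratio of Cck to Penk lay between 4.31 and 5.17 in all 6 libraries, a span of 1.20 times, the smallest among the 10 pairs of tested members.

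For eye condition these ratios had no shared direction across batches in the pairs shown. On the log2 scale, closed minus open for Sst over Vip was 0.01, -0.12 and -0.27 in A, B and C, and for Sst over Tac1 it was 0.05, -0.39 and -0.23. For Cck over Penk it was -0.18, 0.06 and -0.12.

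**Figure D4:**
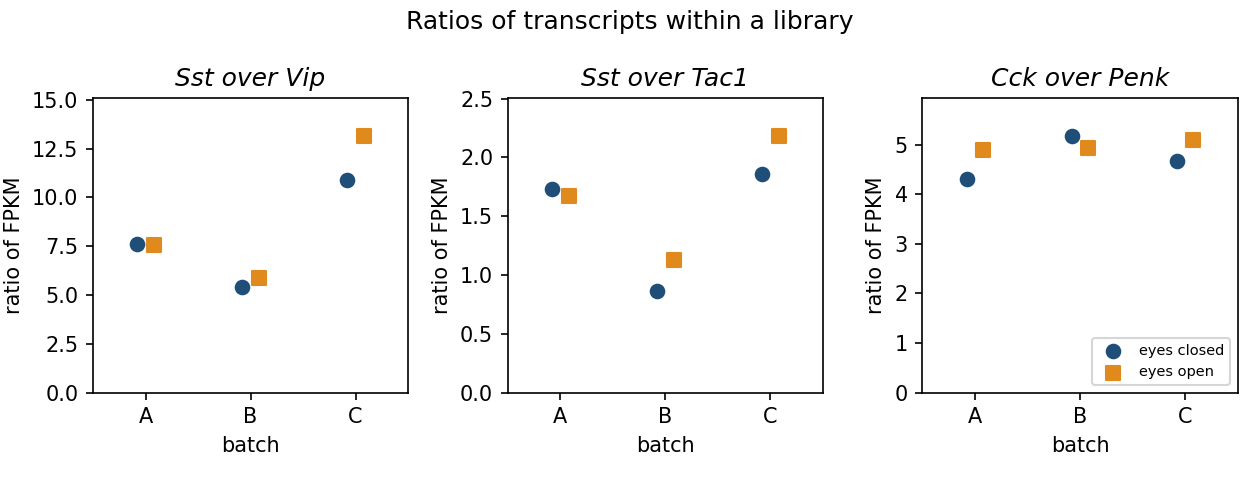
Ratio of FPKM between 2 genes of the same library (vertical axes, from 0) in batches A, B and C, with circles for closed and squares for open eyes. Sst over Vip and Sst over Tac1 are lowest in batch B and highest in batch C in both eye conditions, while Cck over Penk stays between 4.31 and 5.17.

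As a share of the summed FPKM of the 6 genes, Sst made up 44.9%, 33.2% and 48.6% in closed A, B and C, and 43.2%, 37.7% and 53.9% in open A, B and C. In closed B, Tac1 held the largest share, 38.5%, and in the other 5 libraries Sst did. The sum itself ranged from 229 FPKM in closed A to 271 FPKM in open C.

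By likeness of profile, Cck and Penk were each other's nearest member. Likeness was the root mean square difference of log2(FPKM + 0.5) over the 6 libraries after each gene's mean was removed, and it was 0.08 for that pair. The member nearest to Tac1 was Vip, at 0.20, but the member nearest to Vip was Cck, at 0.15. Sst was farthest from every other tested member, between 0.34 from Penk and 0.46 from Tac1. These were not close relations, since 8.57% of tested IDs lay nearer to Cck than Penk did, 7.31% nearer to Tac1 than Vip did, 26.4% nearer to Vip than Cck did, and 49.7% nearer to Sst than Penk did. Those IDs have no symbols here and are not named.

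Over all IDs, summed FPKM was 331008 to 398847 per library, lowest in the 2 libraries of batch C. Depth per library is unknown from FPKM. The authors' mean normalized counts summed to 18809923, which describes an average library. The median log2 difference between closed and open eyes over tested IDs was -0.03.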

How the data were processed

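Polyadenylated RNA of 6 libraries was compared as 3 closed against 3 open, grouped by the labels. The authors deposited FPKM per gene ID. The authors also deposited a comparison made with DESeq2, per the file headers, with a signal value that by its size is a mean normalized count, a log2 fold (turned here to closed over open, as its sign against FPKM showed), and p-values with adjusted p-values. The submitters' processing notes name STAR 2.3.14z, featureCounts 1.4.4, Cufflinks 2.1.1, DESeq2 1.4.1 and build rn5, without saying which made which column.

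Here limma 3.58.1 (R 4.3.3) was fitted to log2(FPKM + 0.5) of the 12351 IDs whose mean reached 1 FPKM, with trend and robust moderation. P-values were two-sided and adjusted by Benjamini-Hochberg, with a threshold of 0.05. Folds on this scale understate changes of low genes. Low FPKM gave no steps of 1 read (at most 3.80% of IDs in the commonest ratio bin over 15 library pairs), so no counting error is given. Both groups carry the batch letters A, B and C in the labels, and this pairs the libraries. Once group means were subtracted, closed and open libraries of 1 batch correlated at 0.361 to 0.525 across IDs. Those of different batches gave -0.375 to -0.0508, and subtracting the means itself pushes these values down where same-batch values are positive. Since nothing says that libraries are separate animals, the p-values here speak of spread between libraries, which may be technical. The fits were run on simulated data with 1 noise SD for all IDs and with folds larger than those of the members. That run does not give the power for differences as small as those of the members.

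Named genes were the 6 members, each reported whatever its change. Members, lists and tests were chosen with earlier results of these data known. The planned lists of receptors, processing enzymes, other neuropeptides and cell type markers were not used here, because no source used here pairs Ensembl IDs with symbols, and protein sequences were not used. Alternatives were other pseudocounts (0.1 and 1), filters (mean FPKM above 0, or at least 5), 3 scalings, plain moderation, the batch block, and each library or batch left out.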

Additional observations from a re-analysis of the deposited data

How the results depend on the processing

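No tested member was called between closed and open eyes in any of 22 alternatives. With the replicate block, the paired fit called 1 ID of all tested, no member. It called 6, 16 and 2 IDs without batches A, B and C, and the unpaired fits without 1 library or batch called 0 to 5. The direction of the small differences was not stable. Sst kept its sign in 21 of 22 alternatives and ranged from -0.27 (without closed C) to 0.019 (without open C). Tac1 ranged from -0.20 (without closed B) to 0.18 over left-out libraries and batches, and was -0.05 without open A, -0.01 without open C and -0.06 without batch B, with or without the block. Cck ranged from -0.15 to 0.063 and turned to 0.039 without open A and 0.063 without batch A, with or without the block. Penk ranged from -0.085 (without open C) to 0.12, and was -0.00023 without closed A and -0.06 without batch C, with or without the block. Vip ranged from -0.17 to 0.10, and was 0.0026 with quantile scaling and 0.0042 with equal medians, with or without the replicate block. The fits without 1 library had no batch term, so the other library of its batch stood without its pair. With a whole batch left out, Sst and Vip stayed below 0, while Tac1, Cck and Penk changed sign as given above. Beyond fewer samples and these unpaired libraries in the fits with libraries left out, the cause was not tested. IDs differing between batches numbered 3449 with quantile scaling, 3730 with upper-quartile scaling and 3739 with equal medians. Npy could be tested with the filter at a mean above 0 FPKM, and its other alternatives were not run. The order of neighbouring genes held in every library for 4 of 5 pairs, and for all 5 without closed B and in the open libraries alone. Sequencing depth per library is unknown, which limits what can be said of low genes such as Npy.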
